A study of Mus musculus with 42 samples.

Results

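The genes described here are the mouse Wnt ligands, their Frizzled receptors and co-receptors, the R-spondins, the 2 genes that modify and carry Wnt proteins, and the secreted Wnt inhibitors. They were picked by a rule on symbols, written with earlier results of these data known. It took the numbered Wnt, Fzd, Sfrp, Dkk and Rspo genes, plus Lrp5, Lrp6, Wls, Porcn, Ryk, Ror1, Ror2 and Wif1. The rule found 49 of the 22180 genes with a probe set of their own on the array, of which 19 were ligands, 2 ligand-processing genes, 10 Frizzleds, 5 co-receptors, 4 R-spondins and 9 inhibitors. Where a gene had several probe sets, as Lrp6 and Sfrp2 did, the probe set with the highest mean was used.

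Wnt proteins are lipid-modified by the acyltransferase Porcn and carried to the cell surface by Wls. They bind a Frizzled together with Lrp5 or Lrp6 to stabilise beta-catenin, or a Frizzled together with Ror1, Ror2 or Ryk to act on cell shape, polarity and movement without beta-catenin. R-spondins bind Lgr receptors and keep the ubiquitin ligases Rnf43 and Znrf3 from removing Frizzleds. Sfrp and Wif1 proteins bind Wnts, while Dkk1, Dkk2 and Dkk4 bind Lrp5 and Lrp6. In stomach and gut, Wnt signals sustain the stem cells at the base of glands and crypts, and Lgr5 is itself a Wnt target.

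The study compared sorted epithelial populations on 42 Affymetrix arrays, each holding total RNA of 1 sample, to find genes enriched in stem cells of the pylorus, the part of the stomach next to the duodenum. In Lgr5-EGFP-IRES-CreERT2 mice, whose Lgr5 locus drives EGFP and CreERT2, cells with high EGFP (Lgr5Hi) and low EGFP (Lgr5Lo) were sorted from pylorus (4 arrays each), small intestine (2 each) and colon (3 each). The same line gave whole pyloric glands (2 arrays), whole small intestine (1), small intestinal crypts (2) and whole colon (2). In Lgr5-EGFP-DTR mice, whose Lgr5 locus drives EGFP fused to the diphtheria toxin receptor, Lgr5Hi, Lgr5Lo and Lgr5Neg pyloric cells were sorted (3 arrays each). In wild-type (WT) mice, pyloric cells were sorted with an antibody to the water channel Aqp5 into Aqp5Pos and Aqp5Neg (4 arrays each). All mice were untreated healthy adults with a minimum age of 7 to 8 weeks, not selected for sex. The labels call the arrays biological replicates but do not tie them to animals, so every p-value measures the spread between these samples. The labels call Lgr5Hi cells stem cells in each organ, and both Aqp5Pos and Aqp5Neg cells pyloric stem cells. They call Lgr5Lo cells differentiated in the IRES line but progenitors in the DTR line.

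Values are log2 intensities, so a difference of 1 is a 2-fold change. Array medians over all probe sets lay between 3.82 and 4.25. No detection calls were used here, so a group mean at or under 4.25 is described as close to background. Levels of different genes come from different probe sets and are not ranked against each other. In sorted populations, a lower signal from fewer expressing cells cannot be told apart from less RNA per cell.

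The labels held for Lgr5, which fell from Lgr5Hi to Lgr5Lo in pylorus (8.53 to 6.51 in the IRES line) and small intestine (8.34 to 5.86), and across the DTR fractions (8.73, 6.59 and 4.60). In colon Lgr5 read 7.01, 7.72 and 8.35 in Lgr5Hi and 6.57, 5.49 and 5.31 in Lgr5Lo arrays. Epcam read between 8.15 and 10.77 on all 42 arrays. Several arrays went against their label. Whole colon array 1 carried the stomach transcripts Muc5ac (12.50) and Atp4b (12.37) and lacked the colonocyte gene Car1 (2.5). The 2 arrays labelled crypt had less Lgr5 (4.81 and 5.04) than the array labelled whole small intestine (7.09), and had the villus gene Sis at 11.73 and 11.62, so by these genes the 2 labels look exchanged; they were kept as given. The Paneth cell defensin Defa24 reached 7.89 and 11.07 in 2 of the 4 IRES pyloric Lgr5Hi arrays, 10.27 and 11.37 in 2 of the 4 Lgr5Lo arrays, 9.33 in a colon Lgr5Hi array and 10.30 in a colon Lgr5Lo array. Member calls of the IRES line, all of which share 1 estimate of spread, numbered 18, and all 18 were kept without whole colon array 1. Results in pylorus and colon are also given without these 6 arrays, which had Defa24 above 7 and are called the high-Defa24 arrays. Pyloric Lgr5Lo array 3 (6.54) and Lgr5Hi array 2 (5.38) lay below that limit and stayed in, so those values are not free of Defa24. The sorted small intestinal arrays had more Defa24 than any of these, at 13.15 and 13.03 in Lgr5Hi and 13.16 and 13.06 in Lgr5Lo. They were kept in every fit, so values of small intestinal Lgr5Hi cells are not free of Paneth cell transcripts.

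Before the values, the windows upstream of 4 genes on which the results turn are shown. Ror2 and Ror1 were the members called higher in pyloric Lgr5Hi cells of both lines, against Lgr5Lo in IRES and Lgr5Neg in DTR. Against Lgr5Lo in the DTR line, Ror2 was called and Ror1 was not. Fzd5 ran the other way in the DTR line. Sfrp5 was higher in Lgr5Hi cells of small intestine than in Lgr5Hi cells of pylorus or colon. Each window holds the 250 bases before the RefSeq start (GRCm38.p6), written on the strand given. Capitals mark CTTTGA or its reverse complement TCAAAG, a form of the core read by TCF/LEF, the factors through which beta-catenin acts. Other forms were not searched.
Ror2, chr13:53286125-53286374, minus strand: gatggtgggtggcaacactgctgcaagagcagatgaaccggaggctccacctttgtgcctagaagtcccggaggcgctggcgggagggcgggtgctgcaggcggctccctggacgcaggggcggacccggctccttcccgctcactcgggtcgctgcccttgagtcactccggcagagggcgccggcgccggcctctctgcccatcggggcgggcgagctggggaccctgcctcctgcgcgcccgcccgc
Ror1, chr4:100095541-100095790, plus strand: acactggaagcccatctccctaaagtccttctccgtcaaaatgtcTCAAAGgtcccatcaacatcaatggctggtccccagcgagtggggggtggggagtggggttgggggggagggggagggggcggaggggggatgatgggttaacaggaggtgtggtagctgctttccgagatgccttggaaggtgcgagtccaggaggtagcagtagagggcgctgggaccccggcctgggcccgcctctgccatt
Fzd5, chr1:64737751-64738000, minus strand: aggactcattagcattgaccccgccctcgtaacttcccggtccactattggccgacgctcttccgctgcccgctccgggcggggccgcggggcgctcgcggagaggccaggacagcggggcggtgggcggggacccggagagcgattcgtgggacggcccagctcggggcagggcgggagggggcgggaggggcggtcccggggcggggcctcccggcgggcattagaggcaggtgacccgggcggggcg
Sfrp5, chr19:42202253-42202502, minus strand: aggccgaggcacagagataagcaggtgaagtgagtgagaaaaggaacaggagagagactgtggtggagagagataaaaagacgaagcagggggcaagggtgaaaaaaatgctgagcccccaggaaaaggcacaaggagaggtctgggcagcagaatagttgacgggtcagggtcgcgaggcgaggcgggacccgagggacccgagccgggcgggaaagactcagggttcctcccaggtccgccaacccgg
Of these 4 windows, that of Ror1 held this form, once, 205 bases before the start and on the reverse strand. Over all members, 5 of 35 windows (14.3%, from 32 genes) held it, against 13.8% of the 32851 windows of all genes. The other windows with a match belonged to Dkk1, Fzd1, Wnt11 and Wnt5b. GC content was 73.2% for Ror2, 62.4% for Ror1, 76.4% for Fzd5 and 59.6% for Sfrp5, against a median of 52.4% over all windows. A match describes these letters only and is no evidence of a bound site.

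Across the 15 groups, 13 members had a mean over 4.25 in every group, 16 had none and 20 had some. The 13 were the co-receptors Lrp5, Lrp6, Ror2 and Ryk, the Frizzleds Fzd1, Fzd4, Fzd5, Fzd6 and Fzd7, both processing genes, the ligand Wnt9b and the R-spondin Rspo1. The 16 were 9 ligands (Wnt1, Wnt2, Wnt3, Wnt3a, Wnt5a, Wnt6, Wnt7b, Wnt8b and Wnt16), Fzd2, Fzd10, Dkk1, Dkk4, Sfrp1, Sfrp4 and Rspo3. The 12 members with the widest range of group means were Fzd3, Sfrp5, Ror2, Fzd4, Wls, Fzd5, Ror1, Fzd6, Fzd7, Lrp5, Sfrp2 and Porcn (range 1.49). The ligands Wnt10a (1.32) and Wnt11 (1.30) followed, and the lowest value of Fzd3 (1.86) came from the lone whole small intestine array.

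**Figure D1:**
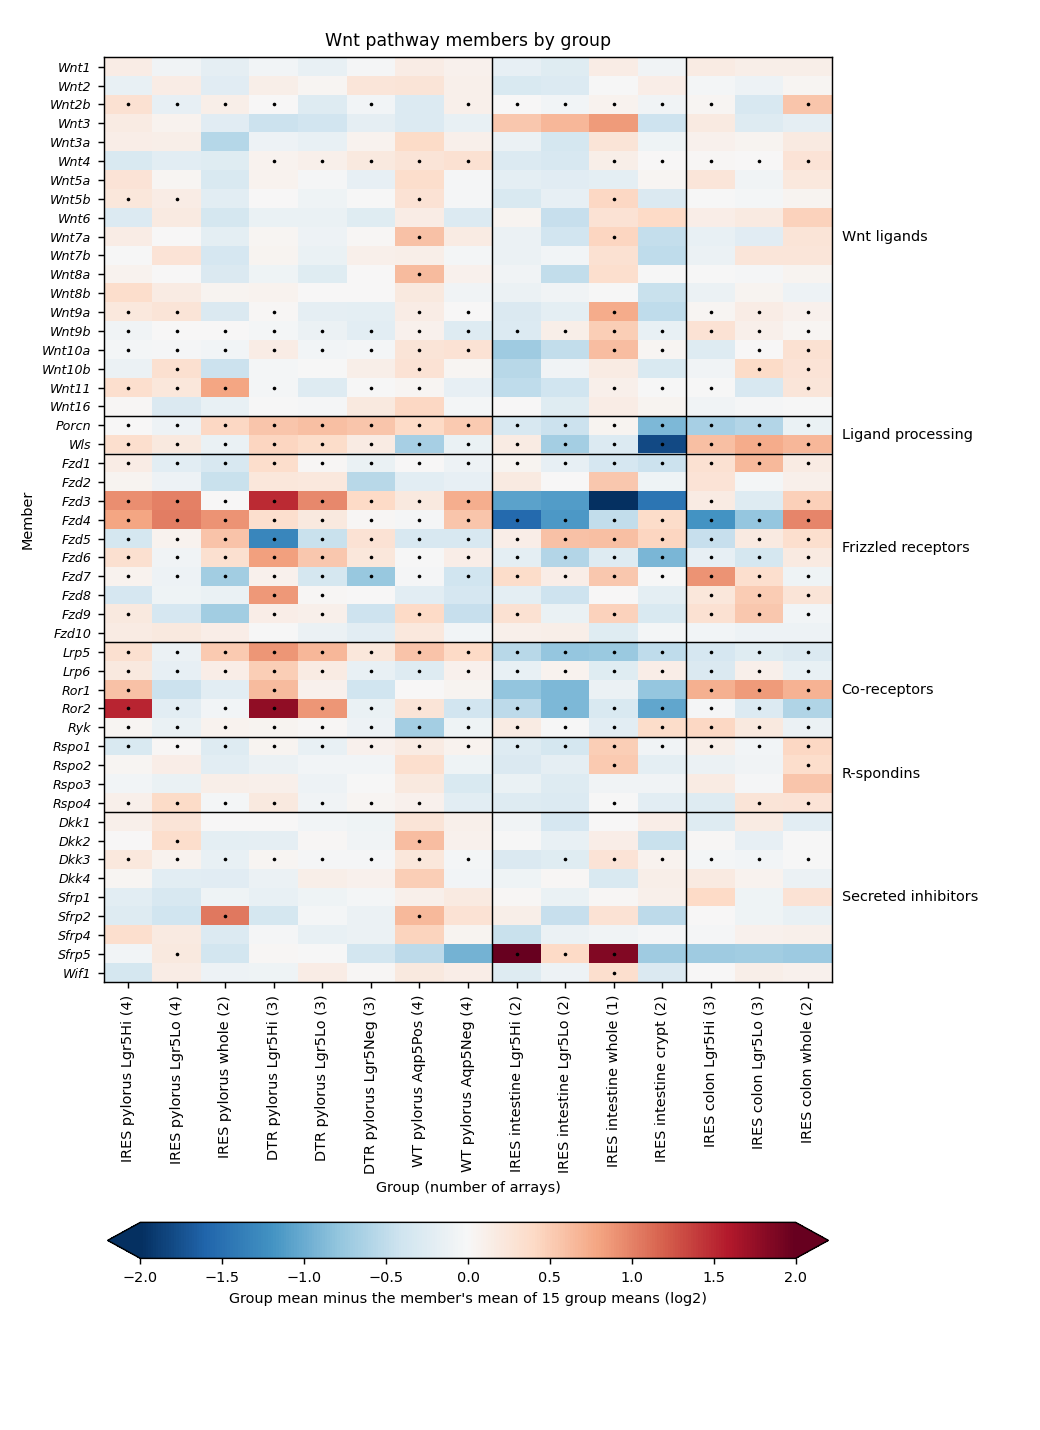
Each row is a member and each column a group. Colour gives the group mean minus that member's mean over the 15 groups (log2, colour limits at 2 in either direction), and a black dot marks a group mean above 4.25. The dots fill the rows of 13 members and are missing from 16. The strongest colours lie in Fzd3, Sfrp5, Ror2, Fzd4 and Wls.

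The 19 ligands stayed low in every population. Their group means ran from 2.5 to 5.16, and without a replicate block limma called 0 of 19 within the lines in each of the 14 comparisons made, with 0 to 2 ligands per comparison at an unadjusted p under 0.05. Wnt9b, the ligand above 4.25 in all groups, had group means between 4.40 in small intestinal Lgr5Hi cells and 5.16 on the whole small intestine array. Wnt11, a ligand known for beta-catenin-independent signalling, read 5.07, 4.32, 5.09 and 4.11 in pyloric Lgr5Hi cells and 3.72 and 3.88 in small intestinal ones, a difference of 0.85 that missed the threshold (adjusted p = 0.0589). The arrays of those 2 groups did not overlap, and the difference passed without pyloric Lgr5Hi array 2 (0.95, adjusted p = 0.0457) or 4 (1.03, 0.0222), and with the replicate number as a block (1.06, 0.0156). Wnt2b read 4.73, 4.77, 4.60 and 4.90 in IRES pyloric Lgr5Hi cells and 4.31, 4.58, 4.26 and 3.97 in Lgr5Lo cells, which also did not overlap, with a difference of 0.47 (adjusted p = 0.29). Wnt3, which Paneth cells are known to make, read 3.59 and 4.27 in small intestinal Lgr5Hi cells and 2.73 and 3.21 in the arrays labelled crypt. Its difference of -0.96 missed the threshold (adjusted p = 0.0863) but passed with the replicate number as a block (adjusted p = 0.042). The Paneth cell list (6 of 7 genes measured) ran between 11.83 and 12 in those Lgr5Hi arrays and 9.93 and 10.66 in the crypt arrays. Its part in the Wnt3 difference was not tested.

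Both processing genes were above background everywhere, Wls with group means between 5.28 and 7.82 and Porcn between 4.63 and 6.12. Wls differed between the arrays labelled crypt and the small intestinal Lgr5Hi arrays. It read 5.25 and 5.30 in the former, 7.51 and 6.98 in the latter, 6.23 and 6.55 in Lgr5Lo cells and 6.80 on the whole small intestine array. The crypt arrays lay below every other array of the series, the next being WT Aqp5Pos array 1 at 5.49. Crypt minus Lgr5Hi was -1.97 ± 0.33 (SE, adjusted p = 0.000251). Porcn passed in no comparison with all arrays, and without pyloric Lgr5Hi array 3 it passed between pyloric and colonic Lgr5Hi cells (1.13, adjusted p = 0.0392).

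In IRES pylorus, 2 of the 49 members differed between Lgr5Hi and Lgr5Lo cells, against 1.49% of all genes, and both were Ror co-receptors with higher signal in Lgr5Hi. Ror2, a receptor tyrosine kinase known as a receptor for Wnt5a, read 7.49, 7.95, 6.87 and 8.24 in Lgr5Hi and 5.45, 6.50, 5.08 and 6.61 in Lgr5Lo. Every Lgr5Hi array lay above every Lgr5Lo array. The means were 7.64 ± 0.60 and 5.91 ± 0.76 (SD, n = 4), a difference of 1.73 ± 0.29 (SE), or 3.31-fold (adjusted p = 0.0036). The call held without any of the 8 arrays in turn, and was 2.45 without the high-Defa24 arrays (adjusted p = 0.000614).

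Ror1, the close relative of Ror2, read 3.64, 5.01, 4.00 and 4.65 in Lgr5Hi cells and 3.26, 3.22, 3.21 and 3.53 in Lgr5Lo cells. The groups did not overlap, the Lgr5Lo arrays were all under 4.25, and Lgr5Hi arrays 1 and 3 were too. The difference was 1.02 ± 0.26 (SE, adjusted p = 0.0461). It missed the threshold without Lgr5Hi array 2 (0.79, adjusted p = 0.17) or 4 (0.91, 0.139), and without Lgr5Lo array 1 (1.01, 0.0962), 2 (0.99, 0.0863), 3 (0.99, 0.0779) or 4 (1.10, 0.0523), and without the high-Defa24 arrays (1.09, 0.183). The other 3 co-receptors, all 10 Frizzleds and the remaining members did not pass. The list of 5 surface-cell (pit) markers ran between 10.47 and 12.02 in Lgr5Hi and 12.12 and 12.43 in Lgr5Lo, and the tuft cell list (9 of 10 genes measured) between 5.39 and 7.56 and between 6.56 and 7.52. The tuft ranges overlapped and the pit ranges did not. The other lists that did not overlap were proliferation (7 of 8 measured, 6.95 to 7.36 against 7.46 to 8.20), enteroendocrine cells (10 genes, 6.98 to 7.54 against 7.81 to 8.89) and gland mucous cells (4 genes, 10.96 to 11.70 against 9.75 to 10.51). The part of these lists in the Ror differences was not tested.

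In the DTR line, where a fraction without EGFP was also sorted, most receptors were higher in Lgr5Hi than in Lgr5Neg cells. Of the 49 members 11 were higher and 1 lower, against 18.3% of all genes called (8.84% higher and 9.48% lower). All 12 were receptors or co-receptors: 7 Frizzleds rose, 1 fell, and 4 of 5 co-receptors rose. By limma, 0 of the 19 ligands, 2 processing genes, 4 R-spondins or 9 inhibitors passed (1, Sfrp5, at an unadjusted p under 0.05), with differences between -0.24 and 0.25 for ligands, -0.06 and 0.16 for R-spondins and -0.22 and 0.40 for inhibitors. The median difference was 0.66 over co-receptors, 0.57 over Frizzleds, 0.09 over all 49 members and 0.02 over all genes. All 12 had arrays that did not overlap between Lgr5Hi and Lgr5Neg. No share over all genes was counted for this, and it rests on the same arrays as the calls, so it adds no support to them. In 1 fit over all 42 arrays, 4 of the 12 passed: Ror2, Ror1, Fzd5 and Fzd7. The 3 DTR comparisons share arrays, so their values are given side by side and not as independent results.

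Ror2 gave a graded series. It read 7.67, 8.07 and 7.92 in Lgr5Hi, 7.16, 7.06 and 6.76 in Lgr5Lo and 6.04, 6.06 and 5.84 in Lgr5Neg cells. The 3 fractions did not overlap with each other. The means were 7.89 ± 0.20, 6.99 ± 0.21 and 5.98 ± 0.12 (SD, n = 3). Lgr5Hi minus Lgr5Neg was 1.91 ± 0.15 (SE, 3.75-fold, adjusted p = 4.08e-06), Lgr5Hi minus Lgr5Lo 0.89 ± 0.15 (adjusted p = 0.00647) and Lgr5Lo minus Lgr5Neg 1.01 ± 0.15 (adjusted p = 0.00408). In 1 fit over all 42 arrays, the latter 2 did not pass (adjusted p = 0.25 and 0.352). In Lgr5Hi minus Lgr5Lo and in Lgr5Lo minus Lgr5Neg, 3 and 2 members passed, against 4.97% and 2.2% of all genes.

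Ror1 read 4.10, 4.32 and 4.66 in Lgr5Hi, 4.15, 3.70 and 3.59 in Lgr5Lo and 3.63, 3.2 and 3.16 in Lgr5Neg cells. Lgr5Hi cells were near background and the other fractions under it. The difference between Lgr5Hi and Lgr5Neg was 1.03 ± 0.20 (SE, adjusted p = 0.00235), and neither step through Lgr5Lo passed. The beta-catenin co-receptors Lrp5 and Lrp6 moved less and from a higher level. Lrp6 read 7.93, 7.95 and 7.75 in Lgr5Hi and 7.23, 7.28 and 7.19 in Lgr5Neg, a difference of 0.65 ± 0.13 (SE, adjusted p = 0.00335). Lrp5 read 8.07, 8.19 and 7.98 against 7.55, 7.59 and 7.13, a difference of 0.66 ± 0.16 (adjusted p = 0.0106), which missed the threshold without Lgr5Neg array 3 (0.51, adjusted p = 0.0531). Ryk, a Wnt-binding pseudokinase, differed by 0.14 ± 0.15 and did not pass.

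Fzd5, a receptor known to be needed for Paneth cell maturation in the small intestine, was the member that fell. It read 4.66, 5.18 and 4.89 in Lgr5Hi, 5.59, 5.83 and 5.91 in Lgr5Lo and 6.77, 6.57 and 6.15 in Lgr5Neg cells. The fractions did not overlap, in the reverse order to Ror2. The means were 4.91 ± 0.26, 5.78 ± 0.17 and 6.50 ± 0.32 (SD, n = 3). Lgr5Hi minus Lgr5Neg was -1.59 ± 0.18 (SE, 3.00-fold lower, adjusted p = 6.91e-05). Lgr5Hi minus Lgr5Lo was -0.86 ± 0.18 (adjusted p = 0.0183), lost without Lgr5Hi array 1 (-0.74, adjusted p = 0.062) or Lgr5Lo array 2 (-0.84, 0.0751) or 3 (-0.80, 0.0943). Lgr5Lo minus Lgr5Neg was -0.72 ± 0.18 and passed without Lgr5Neg array 3 (-0.90, adjusted p = 0.0475).

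Fzd5 was also lower on average in Lgr5Hi than in Lgr5Lo cells of the other line, without passing the test. The means were 5.87 and 6.29 in IRES pylorus (-0.42 ± 0.20, SE, adjusted p = 0.379), 6.35 and 6.80 in small intestine (-0.45 ± 0.29, adjusted p = 1) and 5.76 and 6.40 in colon (-0.64 ± 0.24, adjusted p = 1). In colon the arrays did not overlap, at 5.51, 6.07 and 5.70 against 6.21, 6.45 and 6.53. In pylorus they did, at 5.88, 5.60, 6.15 and 5.84 against 6.25, 6.53, 5.86 and 6.50.

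The 7 Frizzleds that rose in DTR Lgr5Hi cells differed in level and size of change. Fzd3, which is known from axon guidance and planar polarity, read 6.13, 5.83 and 5.48 against 4.71, 4.64 and 4.78 in Lgr5Neg, a difference of 1.11 ± 0.17 (SE, adjusted p = 0.000428). Its Lgr5Lo arrays lay between, at 5.29, 5.41 and 5.13, and Lgr5Hi minus Lgr5Lo passed without Lgr5Hi array 3 (0.71, adjusted p = 0.0306). Fzd7, a beta-catenin-coupled receptor described in small intestinal stem cells, read 4.91, 5.31 and 5.15 against 4.43, 4.40 and 4.00, a difference of 0.85 ± 0.16 (adjusted p = 0.00188).

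Fzd8 was higher in Lgr5Hi cells than in both other fractions. It read 5.26, 5.23 and 4.81 in Lgr5Hi, but 4.10, 4.60 and 4.09 in Lgr5Lo and 4.23, 4.14 and 4.37 in Lgr5Neg, both near background. Lgr5Hi minus Lgr5Neg was 0.85 ± 0.17 (SE, adjusted p = 0.00365) and Lgr5Hi minus Lgr5Lo 0.84 ± 0.17 (adjusted p = 0.0155). The second call was lost without Lgr5Hi array 1 (0.76, adjusted p = 0.0525) or Lgr5Lo array 1 (0.76, 0.0516) or 3 (0.75, 0.0884). In the IRES pylorus Fzd8 was near background in both fractions, with means of 3.89 ± 0.41 and 4.15 ± 0.71 (SD, n = 4).

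Fzd6, Fzd9, Fzd1 and Fzd2 made up the rest. Fzd6, which signals in planar polarity, read 6.25, 6.64 and 6.43 against 5.79, 5.97 and 5.74, a difference of 0.61 ± 0.15 (SE, adjusted p = 0.0138). It was lost without Lgr5Hi array 2 (0.51, adjusted p = 0.0557) or Lgr5Neg array 3 (0.56, 0.057). Fzd9 differed by 0.54 ± 0.16 (adjusted p = 0.035) and Fzd1 by 0.48 ± 0.14 (adjusted p = 0.0295). Both were lost without Lgr5Hi array 2 (0.50 and 0.37, adjusted p = 0.0918 and 0.111) or 3 (0.45 and 0.50, 0.12 and 0.0524), and without Lgr5Neg array 1 (0.57 and 0.50, 0.0683 and 0.0577) or 3 (0.41 and 0.41, 0.151 and 0.114); Fzd1 was also lost without Lgr5Neg array 2 (0.51, 0.0585). Fzd2 rose by 0.77 ± 0.17 (adjusted p = 0.00543), yet all its group means, 3.15, 3.13 and 2.37, were close to background. Its step from Lgr5Neg to Lgr5Lo also passed (0.76 ± 0.17, adjusted p = 0.0335), and was lost without Lgr5Lo array 2 (0.72, 0.123) or 3 (0.67, 0.13) or Lgr5Neg array 2 (0.75, 0.113) or 3 (0.65, 0.171). Fzd4 (0.31 ± 0.14) and Fzd10 did not pass.

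**Figure D2:**
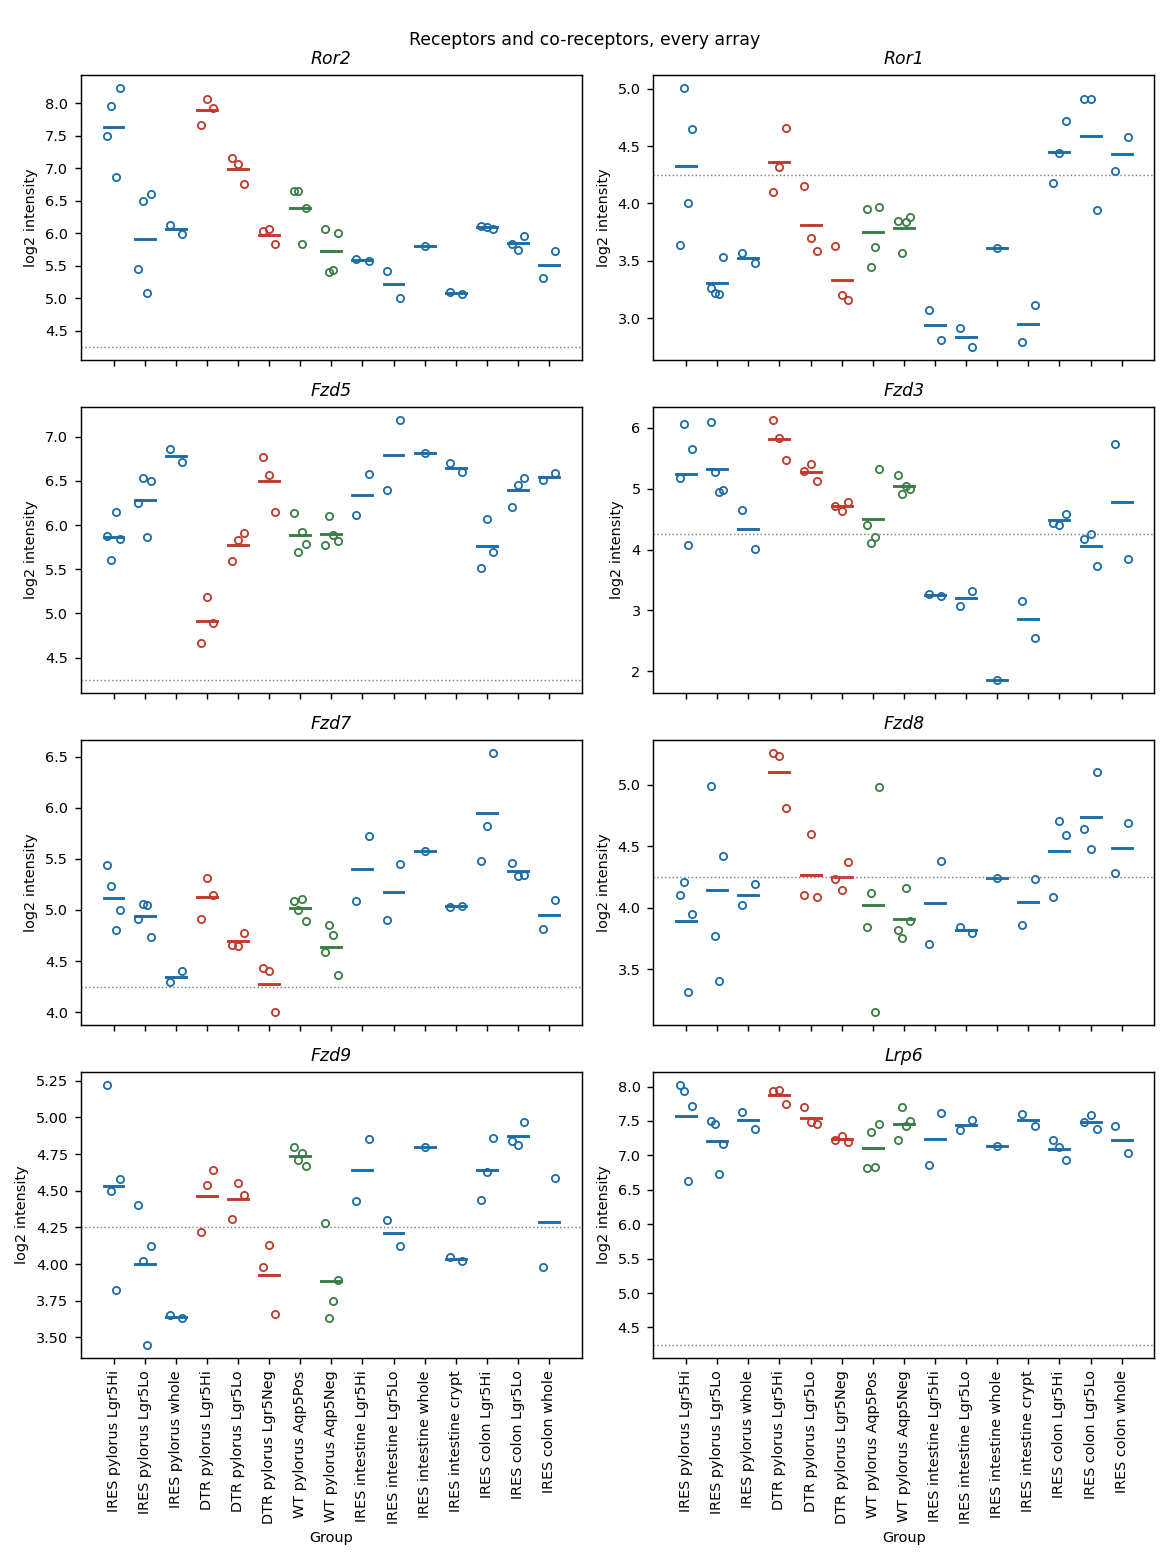
Open circles are single arrays and bars are group means (log2 intensity) of 8 receptors in the 15 groups, and the dotted line is the highest array median, 4.25. Ror2 is highest in the Lgr5Hi groups of both pyloric lines (means 7.64 and 7.89), and Fzd5 is lowest in DTR Lgr5Hi (4.91).

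Other markers moved with these fractions. The pit list ran between 7.34 and 8.21 in DTR Lgr5Hi, 10.81 and 11.24 in Lgr5Lo and 11.74 and 12 in Lgr5Neg. The proliferation list (7 of 8 genes measured) ran between 6.46 and 7.40, 8.17 and 8.46, and 8.42 and 8.81, and the tuft list between 6.61 and 7.52, 5.21 and 5.96, and 5.68 and 6.39. The gland mucous list ran between 11.58 and 11.72, 10.93 and 11.25, and 9.12 and 9.59, and the parietal and chief cell list between 9 and 9.81, 9.52 and 10.17, and 6.58 and 7.30. Their part in the receptor differences was not tested. The fibroblast and muscle list (15 genes) ran between 3.67 and 4.40 over all sorted arrays. In the sorted groups, 4 to 8 of these 15 genes lay above the highest array median, with 7 in each DTR fraction. The part of this list in the Ror2 signal was not tested.

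In WT pylorus sorted on Aqp5, 1 member passed, against 2.8% of all genes. Fzd9 read 4.80, 4.71, 4.76 and 4.67 in Aqp5Pos and 4.28, 3.63, 3.75 and 3.89 in Aqp5Neg cells. The groups did not overlap, and 3 of the 4 Aqp5Neg arrays were under 4.25. The difference was 0.85 ± 0.18 (SE, adjusted p = 0.0282), lost without Aqp5Pos array 1 (0.83, adjusted p = 0.0522) or Aqp5Neg array 2 (0.76, 0.094), 3 (0.80, 0.0954) or 4 (0.85, 0.092). Fzd9 thus passed in Aqp5Pos minus Aqp5Neg and in DTR Lgr5Hi minus Lgr5Neg. Its Lgr5Hi minus Lgr5Lo difference passed neither in DTR (means 4.47 and 4.44) nor in IRES pylorus (0.53, adjusted p = 0.339).

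The members that led in the Lgr5 sorts did not pass in the Aqp5 sort, where Lgr5 itself differed by 1.96 ± 0.23 (SE, adjusted p = 0.00154), beside 2.02 ± 0.30 in IRES pylorus. Ror2 read 6.65, 6.65, 5.84 and 6.38 in Aqp5Pos and 6.07, 5.41, 5.43 and 6.01 in Aqp5Neg. The arrays overlapped, and the difference of 0.65 ± 0.24 did not pass (adjusted p = 0.162). Ror1 differed by -0.04 ± 0.18 and Fzd5 by -0.01 ± 0.17. Fzd3 ran the other way, at 4.41, 4.11, 4.20 and 5.32 against 5.23, 4.92, 5.04 and 4.99, a difference of -0.53 ± 0.25 that missed the threshold (adjusted p = 0.26) but passed without Aqp5Pos array 4 (-0.80, adjusted p = 0.0337). Whether these differences themselves differ between the lines was not tested. The tuft list ran between 4.47 and 4.70 in Aqp5Pos and between 5.89 and 6.27 in Aqp5Neg cells, and the pit list between 10.02 and 11 and between 12 and 12.11.

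**Figure D3:**
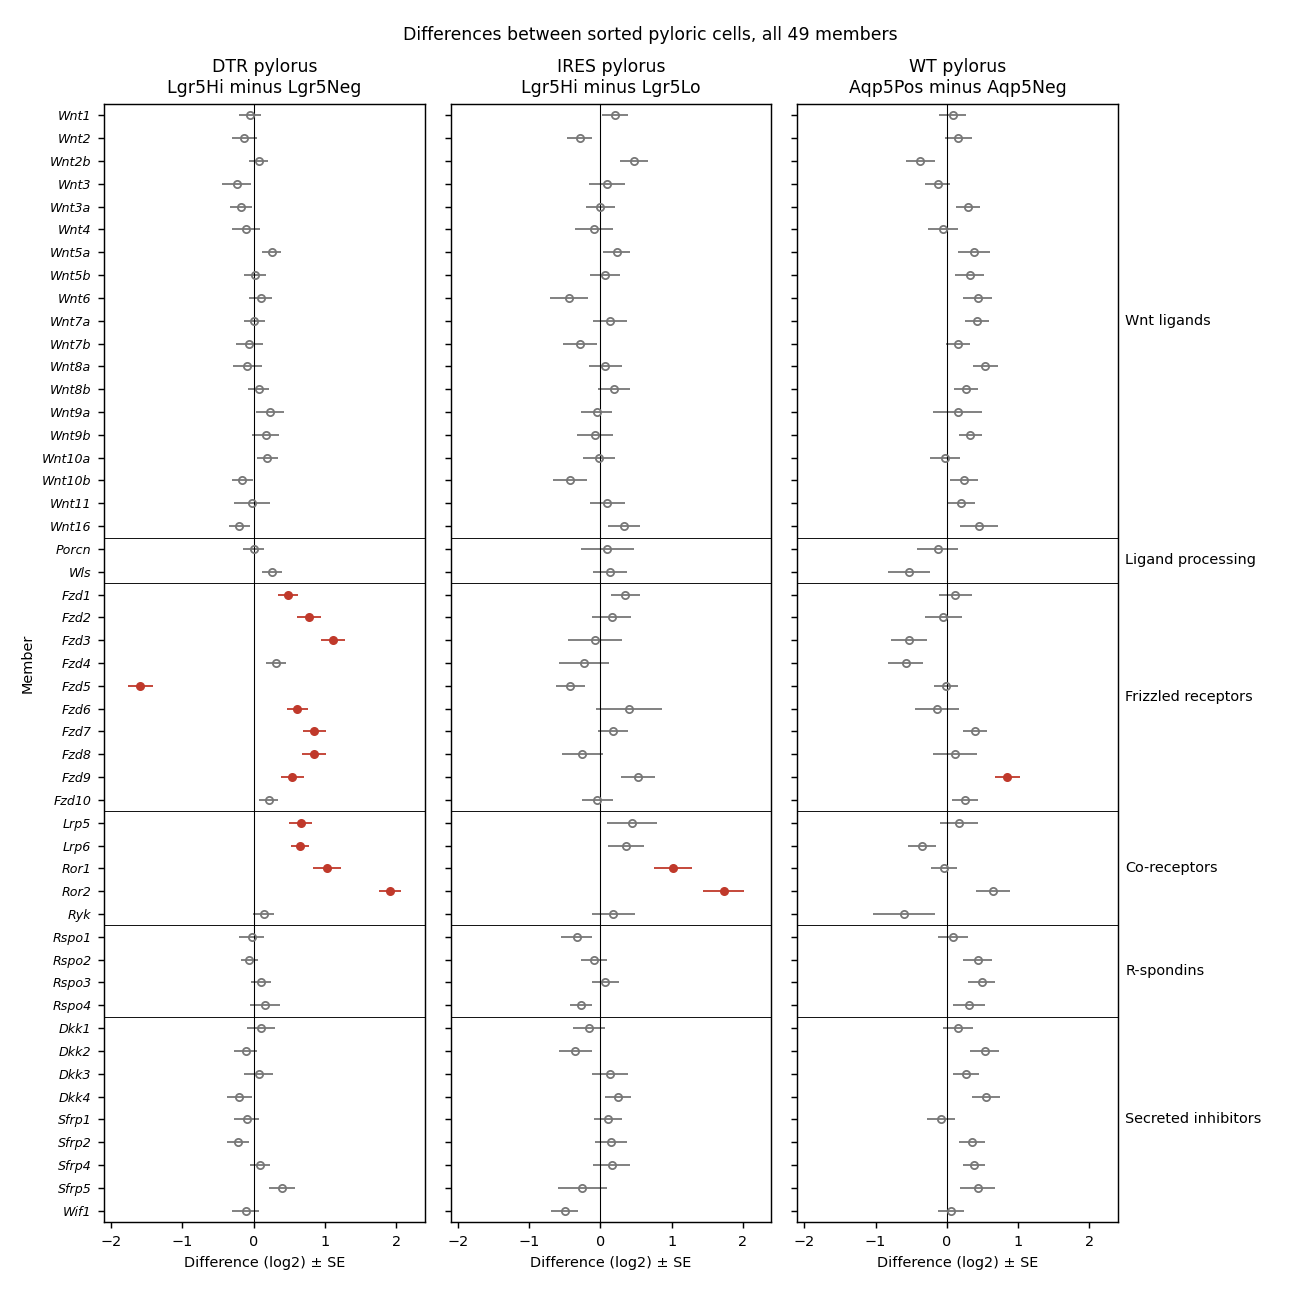
Points are the differences of the 49 members (log2) with their standard errors in DTR Lgr5Hi minus Lgr5Neg, IRES pylorus Lgr5Hi minus Lgr5Lo and WT Aqp5Pos minus Aqp5Neg, and filled red points passed an adjusted p of 0.05. The red points number 12, 2 and 1, and each is a Frizzled or a co-receptor.

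In small intestine and colon no member passed between Lgr5Hi and Lgr5Lo cells. In small intestine 0.185% of all genes were called by limma, and 2 members had an unadjusted p under 0.05. Sfrp5, a secreted Frizzled-like protein that binds Wnts, read 6.89 and 6.78 in Lgr5Hi and 3.86 and 5.30 in Lgr5Lo, a difference of 2.25 ± 0.49 (SE, adjusted p = 0.0647). The arrays did not overlap, and the call was made without Lgr5Lo array 2 (2.97, adjusted p = 0.0418). Wls read 7.51 and 6.98 against 6.23 and 6.55, a difference of 0.86 ± 0.33 (adjusted p = 0.759). In colon 0% of all 22180 genes were called by limma and 4 members had an unadjusted p under 0.05, among them Fzd5 and Fzd7 (0.57 ± 0.25, higher in Lgr5Hi). Ror2 did not pass in either organ, though its Lgr5Hi arrays lay above its Lgr5Lo arrays in both. In colon it read 6.11, 6.10 and 6.06 in Lgr5Hi and 5.84, 5.74 and 5.96 in Lgr5Lo (difference 0.24). In small intestine it read 5.60 and 5.58 against 5.42 and 5.01 (difference 0.37).

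Whether the Lgr5Hi to Lgr5Lo difference of Ror2 was larger in pylorus than elsewhere was tested directly. Against colon, the pyloric difference was larger by 1.48 ± 0.45 (SE, adjusted p = 0.221), and with the replicate number as a block by 1.48 ± 0.29 (adjusted p = 0.0279). Against small intestine it was larger by 1.35 ± 0.51 (adjusted p = 0.482). The Sfrp5 difference was smaller in pylorus than in small intestine by 2.5 ± 0.60 on the log2 scale (adjusted p = 0.181), and in 1 fit over all 42 arrays it passed (adjusted p = 0.0254). In the limma fit of the IRES line without the block, 0 members passed in either test, where 0.225% and 0.0316% of all genes did, and 3 and 2 members had an unadjusted p under 0.05.

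Among Lgr5Hi cells of the 3 organs, pyloric cells had higher Ror2 and Fzd4 than both others, and higher Fzd3 and Ror1 and lower Sfrp5 than small intestine. Against small intestine 5 members passed, against 12.4% of all genes. Fzd4, a receptor for Wnts and for norrin, read 7.26, 6.97, 6.92 and 7.13 in pylorus and 4.31 and 5.15 in small intestine, a difference of 2.34 ± 0.43 (SE, 5.07-fold, adjusted p = 0.000659). Ror2 read 5.60 and 5.58 in small intestine, 2.05 ± 0.36 below pylorus (adjusted p = 0.000394). All 4 pyloric arrays of each gene lay above both small intestinal arrays.

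Fzd3 read 5.18, 6.06, 4.08 and 5.65 in pylorus and 3.27 and 3.23 in small intestine, a difference of 1.99 ± 0.46 (SE, adjusted p = 0.00508). It was lost without small intestinal array 1 (2.01, adjusted p = 0.0621) or 2 (1.97, 0.0565). Ror1 read 3.07 and 2.81 in small intestine, all background, and was 1.38 ± 0.31 higher in pylorus (adjusted p = 0.00443), lost without small intestinal array 2 (1.26, 0.0755). Sfrp5 went the other way, at 4.13, 3.35, 3.71 and 5.31 in pylorus against 6.89 and 6.78, a difference of -2.71 ± 0.43 (6.53-fold lower, adjusted p = 0.000131). In the 4 high-Defa24 pyloric arrays Sfrp5 read 3.71 and 5.31 (Lgr5Hi arrays 3 and 4) and 5.03 and 4.13 (Lgr5Lo arrays 2 and 4). Without the high-Defa24 arrays all 5 calls were kept, Sfrp5 at -3.09 (adjusted p = 0.000284), Fzd4 at 2.39 (0.0174), Ror2 at 2.13 (0.000113), Fzd3 at 2.37 (0.00956) and Ror1 at 1.39 (0.0404).

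Against colon 3 members passed, against 7.12% of all genes. Fzd4 read 4.86, 5.27 and 5.14 in colon, 1.98 ± 0.38 (SE) below pylorus (adjusted p = 0.00151). Without the high-Defa24 arrays its difference was 2.11 with an adjusted p of 0.0601. Ror2 was 1.55 ± 0.32 higher in pylorus than in colon (adjusted p = 0.00258), and its call held without any of the 7 arrays and without the high-Defa24 arrays (1.64, adjusted p = 0.00274). Fzd7 was lower in pylorus, at 5.44, 5.23, 4.80 and 5.00 against 5.48, 5.82 and 6.54 in colon. Its difference of -0.83 ± 0.23 (adjusted p = 0.0288) was lost without pyloric array 3 (-0.73, adjusted p = 0.0805) or 4 (-0.79, 0.0677) without colon array 2 (-0.90, 0.0593) or 3 (-0.54, 0.248), and without the high-Defa24 arrays (-0.68, 0.329). Without pyloric array 3, Lrp6 passed as well (0.80, adjusted p = 0.0341).

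Between small intestinal and colonic Lgr5Hi cells 2 members passed, against 2.6% of all genes. Sfrp5 read 3.15, 3.60 and 3.67 in colon, close to background, and was 3.36 ± 0.45 higher in small intestine (SE, 10.30-fold, adjusted p = 5.64e-05). Ror1 read 4.18, 4.44 and 4.72 in colon and was 1.5 ± 0.33 lower in small intestine (adjusted p = 0.011), lost without small intestinal array 1 (-1.63, adjusted p = 0.0732) or 2 (-1.38, 0.148) or colon array 3 (-1.37, 0.0541), and without the high-Defa24 arrays (-1.51, 0.0902). Ror1 was above 4.25 in colonic Lgr5Lo cells (mean 4.59 ± 0.56, SD, n = 3) as well as Lgr5Hi cells (4.44 ± 0.27). These 3 organ comparisons share arrays.

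**Figure D4:**
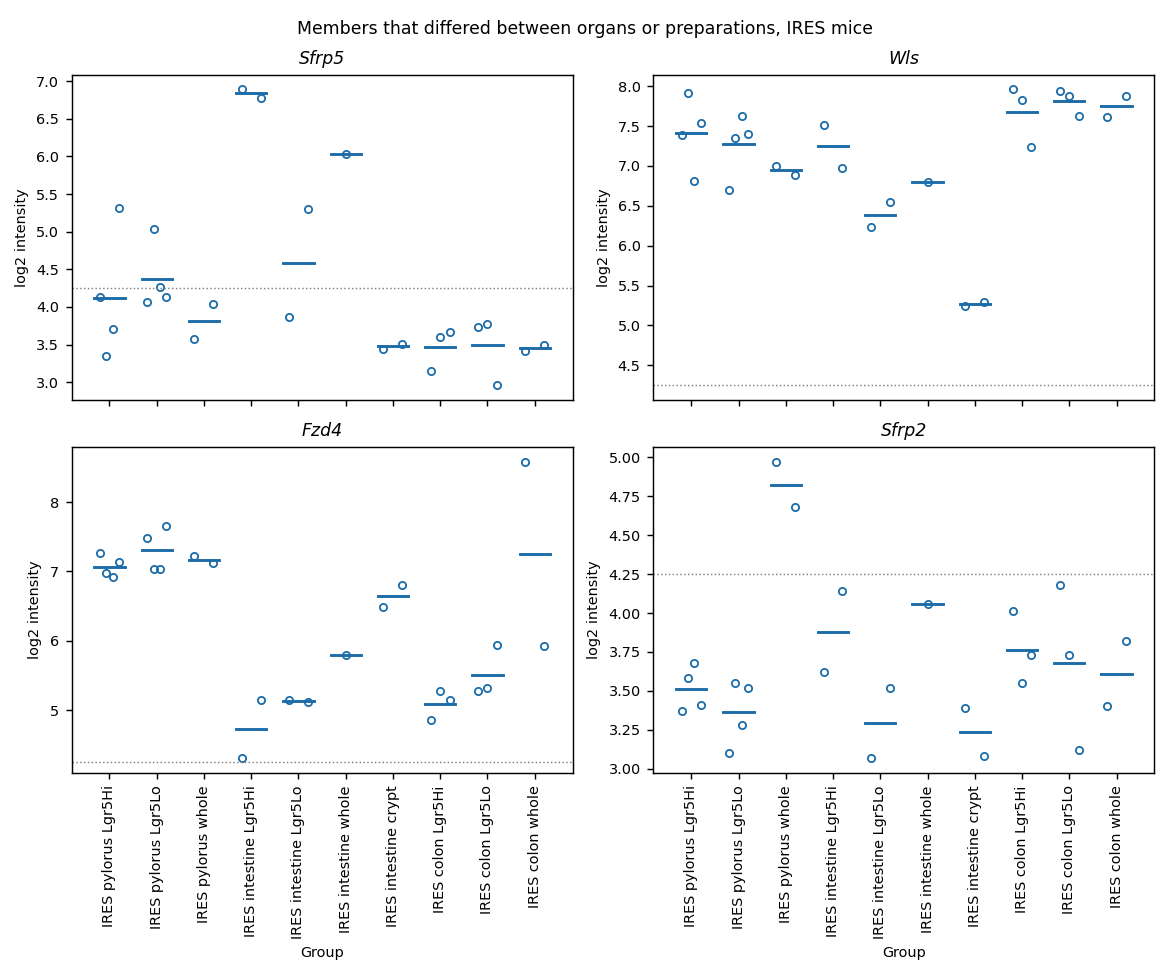
Open circles are single arrays and bars are group means (log2 intensity) of Sfrp5, Wls, Fzd4 and Sfrp2 in the 10 groups of the IRES line. Sfrp5 is highest in small intestinal Lgr5Hi cells (mean 6.83), and whole colon array 1 stands out for Fzd4 (8.58).

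The R-spondins and inhibitors gave few other differences. Rspo1 was above 4.25 in every group, with means between 5.32 and 6.15, and did not pass in any comparison; Rspo2, Rspo3 and Rspo4 had means between 2.49 and 4.73. Dkk1, Dkk2, Dkk4, Sfrp1, Sfrp4 and Wif1 never exceeded a group mean of 4.62, and Dkk3 had means between 4.20 and 4.76. Sfrp2 was the inhibitor that passed in whole pyloric glands. It read 4.97 and 4.68 in whole glands, 3.37, 3.58, 3.68 and 3.41 in Lgr5Hi and 3.10, 3.55, 3.28 and 3.52 in Lgr5Lo cells.

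In whole glands minus Lgr5Hi cells 3 members passed, against 5.98% of all genes. Sfrp2 was higher by 1.31 ± 0.26 (SE, adjusted p = 0.00301), Ror2 lower by -1.58 ± 0.36 (adjusted p = 0.00873) at 6.13 and 5.99, and Fzd5 higher by 0.91 ± 0.25 (adjusted p = 0.031) at 6.86 and 6.71. All 3 were lost without whole gland array 1 (1.17, -1.64 and 0.84, adjusted p = 0.0883, 0.0765 and 0.265). Ror2 and Fzd5 were also lost without whole gland array 2 (-1.51 and 0.99, adjusted p = 0.152 and 0.192), and Fzd5 without Lgr5Hi array 1 (0.92, 0.0541), 2 (0.82, 0.0807) or 4 (0.90, 0.0565). Fzd5 was lost without the high-Defa24 arrays (1.04, 0.0569) and after quantile normalization (0.71, 0.0819). Fzd9 was lower in whole glands without Lgr5Hi array 3 (-1.12, adjusted p = 0.0153). With the mean of both Sfrp2 probe sets the difference was 0.70 (adjusted p = 0.121). The fibroblast gene Dcn read 7.46 and 5.17 and the smooth muscle gene Acta2 7.31 and 6.42 in the 2 whole gland arrays, and the list of 15 such genes ran between 4.44 and 5.07 there; their part in the Sfrp2 difference was not tested.

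In the arrays labelled crypt 3 members differed from small intestinal Lgr5Hi cells, against 13.4% of all genes. Sfrp5 read 3.44 and 3.51, a difference of -3.36 ± 0.49 (SE, adjusted p = 5.57e-05), while the array labelled whole small intestine read 6.03. Fzd4 read 6.48 and 6.81, higher by 1.92 ± 0.50 (adjusted p = 0.0109), against 5.79 on the whole small intestine array. Fzd4 was lost without crypt array 2 (1.75, adjusted p = 0.116) or Lgr5Hi array 1 (1.5, 0.183). Other markers moved with these calls. The proliferation list ran between 6.55 and 7.15 in the crypt arrays and 8.55 and 8.58 in Lgr5Hi (7 of 7 measured genes lower). The enterocyte gene Alpi (4.66 ± 0.93) was higher, among 3 of 8 enterocyte genes, and Dcn (3.11 ± 0.58), among 2 of 15 fibroblast and muscle genes. The T cell gene Cd3e (2.11 ± 0.33) and the leukocyte gene Ptprc (1.99 ± 0.54) were higher too, 2 of 12 measured immune genes. The immune list had a median difference of -0.1 against 0 over all genes. The Paneth list ran between 9.93 and 10.66 in the crypt arrays and 11.83 and 12 in Lgr5Hi. Their part in the member differences was not tested.

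The other genes of the pathway were read from lists of extracellular modulators (17 genes), receptor turnover (5), signal transduction (26 of 29 measured), feedback targets (6) and planar polarity (10). In DTR Lgr5Hi against Lgr5Neg cells, where 8.84% of all genes rose, 5 of the 6 feedback targets did, with a list median of 0.89 against 0.02 over all genes. Nkd1, an inhibitor of Dishevelled, rose by 2.21 ± 0.23 (SE, adjusted p = 3.39e-05), and Axin2, a scaffold of the beta-catenin destruction complex, by 1.42 ± 0.13 (adjusted p = 9.66e-06). Of the receptor turnover genes 3 of 5 rose: Znrf3 by 1.22 ± 0.17, Rnf43 by 1.18 ± 0.17 and Lgr5, whose locus drives the sorted EGFP, by 4.13 ± 0.19. Of the extracellular modulators 3 of 17 rose: Notum, which strips the Wnt lipid, by 1.12 ± 0.16, Apcdd1 by 1.00 ± 0.17 and the glypican Gpc4 by 0.72 ± 0.17. Of the transduction genes 3 of 26 rose, near the share over all genes (Bcl9 1.06 ± 0.13, Tle1 0.89 ± 0.15 and Apc 0.48 ± 0.13). Of the planar polarity genes 3 of 10 rose (Prickle1 0.92 ± 0.17, Celsr2 0.76 ± 0.18 and Celsr1 0.48 ± 0.13) and Daam2 fell by 0.52 ± 0.15.

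In IRES pylorus, Lgr5Hi was compared with Lgr5Lo cells and 1.49% of all genes were called. The feedback list had 0 of 6 called by limma, 4 with an unadjusted p under 0.05 and a median of 0.75 against -0.04 over all genes. The co-repressor Tle1 rose by 1.29 ± 0.23 (SE, adjusted p = 0.00482), the planar polarity gene Prickle1 by 0.81 ± 0.20 (adjusted p = 0.0426) and Lgr5 by 2.02 ± 0.30. In WT cells Lgr5 was the gene of these lists that passed, and the feedback list had a median of 0.55 against 0.06 over all genes.

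Between Lgr5Hi cells of pylorus and small intestine, the lists moved in both directions. Prickle1 (0.98 ± 0.25, SE), Celsr1 (1.34 ± 0.40) and Celsr2 (0.97 ± 0.30) were higher in pylorus, making 3 of 10 planar polarity genes where 12.4% of all genes were called. Fzd6 and Ryk did not pass there. Nkd1 was higher in pylorus by 1.97 ± 0.38 and Axin2 lower by -1.73 ± 0.37. The co-repressor Tle4 was lower by -1.86 ± 0.36 and Igfbp4, a secreted protein described as a Wnt antagonist, by -1.81 ± 0.28. Against colon, Prickle1 (0.84 ± 0.22), Celsr2 (1.10 ± 0.26) and Nkd1 (1.88 ± 0.33) were higher and Tle4 lower (-1.62 ± 0.32).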

How the data were processed

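The deposited table holds log2 intensities for 41345 probe sets on 42 arrays, with 0 values missing. The submitters' processing notes name RMA, oligo, Partek, R 3.2.3 and limma 3.26.8, without roles or order. Of the probe sets 23521 had 1 gene symbol, 1814 had several and 16010 had none, from the platform annotation, which can be old. Probe sets with several symbols were left out, and all 49 members matched RefSeq symbols. No 2 arrays were identical (highest correlation 0.992).

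limma 3.58.1 in R 4.3.3 was fitted to all 22180 genes within each mouse line, with 1 mean per group, eBayes, and Benjamini-Hochberg adjustment over all genes. Calls were made where the adjusted p lay under 0.05. The scripts were tested on simulated data. Arrays titled Lgr5-EGFP-DTR carry the IRES line in their mouse model field, and the title was followed.

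The labels reuse replicate numbers. Deviations from group means correlated between same-numbered Lgr5Hi and Lgr5Lo arrays by 0.104 to 0.296 in IRES pylorus and 0.136 to 0.242 in IRES colon, which was taken as pairing. In IRES small intestine, with 2 pairs, the correlation was 0.373. The main calls were still made without this pairing, and the replicate block was run as an alternative. In the DTR (-0.112 to 0.154) and WT (-0.023 to 0.165) arrays they were taken as unpaired. These ranges overlap with those of IRES pylorus and colon. Differently numbered arrays were not compared, so the split is a choice. Same-numbered pyloric and small intestinal Lgr5Hi arrays correlated by 0.011 and 0.085, and crypt and Lgr5Hi arrays by 0.032. Whole pyloric gland and Lgr5Hi arrays correlated by 0.008 and 0.036. Blocked results in these comparisons, such as those of Wnt11 and Wnt3, therefore rest on a pairing that these values do not show.

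The members and lists were chosen with earlier results of these data known. Every called member is named. Members are described by level where a group mean passed 4.25, and list genes by count with up to 4 examples of smallest p, except between organs, where further genes were named after their values were seen. Alternatives were 1 fit over all arrays, quantile normalization, trend and robust settings, a minimum mean of 4, the mean of all probe sets, the replicate block, and leaving out arrays.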

Additional observations from a re-analysis of the deposited data

Results flagged for a closer look

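In groups of 4 arrays, an array was picked out when its gap to the nearest other array was large against the group's range (Dixon's critical value). Over 17 members this was tested in 68 groups, of which 3 were picked out, and chance picks out about 1 in 20. Fzd2 was highest in WT Aqp5Pos array 1, at 3.43 against 2.53 in the nearest array. Ror1 was highest in IRES pyloric Lgr5Lo array 4, at 3.53 against 3.26. Ror1 was lowest in WT Aqp5Neg array 2, at 3.57 against 3.84. All 3 values were close to background.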

How the results depend on the processing

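No call changed direction under any alternative run. Ror2 in IRES pylorus kept its call under all 9 settings and without each of 8 arrays. In 1 fit over all 42 arrays, the count of called members moved to 4 in DTR Lgr5Hi against Lgr5Neg, 1 in DTR Lgr5Hi against Lgr5Lo, 0 in DTR Lgr5Lo against Lgr5Neg (Ror2 adjusted p = 0.352), 1 in small intestinal Lgr5Hi against Lgr5Lo (Sfrp5, adjusted p = 0.00492), 6 in whole pyloric glands, and 1 in the test of pyloric against small intestinal differences (Sfrp5, adjusted p = 0.0254). With low genes left out it was 1 in IRES pylorus and 1 in small intestine against colon, since Ror1 was not tested. Without whole colon array 1 it was 1 in small intestine (Sfrp5). The replicate block gave 5 in whole pyloric glands, where Fzd7 and Fzd9 were added, 1 in the test of pyloric against colonic differences (Ror2), and 1 in DTR Lgr5Lo against Lgr5Neg (Fzd2 adjusted p = 0.0534). It added Wnt11 between pylorus and small intestine (1.06, adjusted p = 0.0156) and Wnt3 in the crypt arrays (-0.96, adjusted p = 0.042), and took away Fzd7 between pylorus and colon (-0.78, adjusted p = 0.0501). It changed no other call. Ligands were otherwise added in 1 fit over all arrays (Wnt11, Wnt3 and Wnt3a) and with low genes left out (Wnt11, adjusted p = 0.0428). Leaving out the high-Defa24 arrays, chosen after seeing the data, gave 1 in IRES pylorus (Ror2), 1 between pylorus and colon (Ror2) and 1 between small intestine and colon. Leaving out the pyloric arrays numbered 3, also chosen after seeing the data, gave 1 in IRES pylorus and 5 between pylorus and colon, where Lrp5, Lrp6 and Porcn were added. With 1 array left out, counts ran from 1 to 2 in IRES pylorus, 0 to 1 in small intestine, 0 to 0 in colon, 8 to 12 in DTR Lgr5Hi against Lgr5Neg, 1 to 4 against Lgr5Lo, 1 to 2 in Lgr5Lo against Lgr5Neg, 0 to 2 in WT, 3 to 6 between pylorus and small intestine, 2 to 4 between pylorus and colon, 1 to 2 between small intestine and colon, 0 to 4 in whole glands, 2 to 3 in crypts and 0 to 0 in both tests between organs. Groups then left with 1 array were assumed to vary like the others. Where not stated, the cause was not tested. The small number of arrays limits precision, and members close to background, such as Ror1, Fzd2 and most ligands, most of all.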

Other observations

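Some members and lists had values that belong to no comparison. Whole colon array 1, which carried stomach transcripts, read 8.58 for Fzd4 and 5.73 for Fzd3, while the other whole colon array read 5.92 and 3.84. The single array labelled whole small intestine had the highest group value of Wnt9b (5.16), Wnt10a (5.06), Wnt9a (5.10) and Rspo1 (6.15), with no replicate to set them against. WT Aqp5Pos array 1 was the lowest of its 4 arrays for Ryk, at 5.41 against 7.80, 7.12 and 7.79.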
